A study of Mus musculus with 7 samples.

Results

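The cytosolic ribosomal proteins were followed in mouse sperm RNA on 7 whole-transcript Affymetrix arrays, as 110 probe sets with 69 gene symbols out of 23493 probe sets with 22154 symbols. A probe set was taken when its annotation held exactly 1 gene symbol and that symbol had the form of a cytosolic ribosomal protein gene, such as Rpl3, Rps6, Rplp0 or Rpsa, and genes of the Rps6 kinases and symbols of pseudogenes were left out. The symbols comprised 32 large subunit proteins, 23 small subunit proteins, 3 stalk proteins, 10 genes named as paralogs or relatives of a ribosomal protein, and Rps19bp1, which the form of the symbol takes in although it encodes a partner of Rps19 and no ribosomal protein. RefSeq types 2 of the paralogs, Rps4l and Rpl6l, as pseudogenes.

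The TG3 group held 3 arrays of sperm from males that carried a KDM1A transgene, and the nonTG3 group held 3 arrays of sperm from littermates without it. The construct had been injected into C57BL/6 zygotes, the founders were female, and heterozygous males passed it on through matings with C57BL/6 females up to generation 3, so both groups descend from transgene carriers. The C57BL/6 group was 1 array. Each TG3 or nonTG3 array was a pool of RNA from 4 males and the C57BL/6 array a pool from 5 males. The labels state neither the promoter of the transgene, nor the ages of the males, nor whether a male entered more than 1 pool. The TG3 and nonTG3 arrays are together called the line below. The lone C57BL/6 array has no replicate, so every comparison with it borrows its spread from the line, and all p-values measure only the spread between these pools.

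All values are deposited log2 intensities after RMA, a method that fits 1 value per probe set and array. A difference of 1 is a doubling, and levels of separate probe sets cannot be set against each other because each has its own affinity. Array medians over all 33604 probe sets lay between 3.52 and 3.61, and 20 member probe sets averaged below 3.52. Whether readings that low lie above background was not measured. Kdm1a, the mouse gene that shares the transgene's name, read 5.06, 5.27 and 5.27 in TG3, 5.07, 5.27 and 5.27 in nonTG3 and 5.64 in C57BL/6. These arrays therefore gave no check of the TG3 label, and whether the Kdm1a probe set reads the transgene was not tested. Of 8 listed late sperm markers 7 were measured, Prm1, Prm3, Tnp1 and Tnp2 of sperm chromatin and Odf1, Smcp and Akap4 of the sperm tail, and all were above the array median on every array.

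Ribosomal proteins and ribosomal RNA form the small subunit, which decodes the mRNA, and the large subunit, which joins amino acids. Their mRNAs are among the most abundant in growing cells, and many begin with a run of pyrimidines through which their translation is controlled together. Developing spermatids shed most of their cytoplasm, ribosomes included, in the residual body, and mature sperm are regarded as silent in transcription and in cytosolic translation. Male germ cells also use autosomal or testis forms of some subunits, among them Rpl10l and Rpl39l, while the sex chromosomes that carry Rpl10 and Rpl39 are silenced in meiosis. Ribosomal protein genes have many processed copies in the mouse genome, and which copies a probe set reads was not tested.

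The arrays differed in the ribosomal protein probe sets, and nonTG3 replicate 2 stood lowest. The 110 probe sets averaged 6.48, 6.42 and 6.32 on TG3 replicates 1, 2 and 3, 6.36, 5.83 and 6.16 on nonTG3 replicates 1, 2 and 3, and 6.28 on the C57BL/6 array. nonTG3 replicate 2 had the lowest value of the 6 line arrays at 73 of the 110, or 66.4%, against 14.9% of all probe sets tested. TG3 replicate 1 had the highest value at 47, or 42.7%, against 17.4% of all tested. Among the 46 member probe sets with a mean of at least 7, nonTG3 replicate 2 was lowest at 44, or 95.7%, and over all 884 tested probe sets as bright it was lowest at 20.4%. Set against the other 5 line arrays, nonTG3 replicate 2 was lower at 91 of 110 probe sets, by a median of -0.53, and lower by more than 1 at 14. That last share was 12.7% of the members and 0.843% of all probe sets tested.

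**Figure D1:**
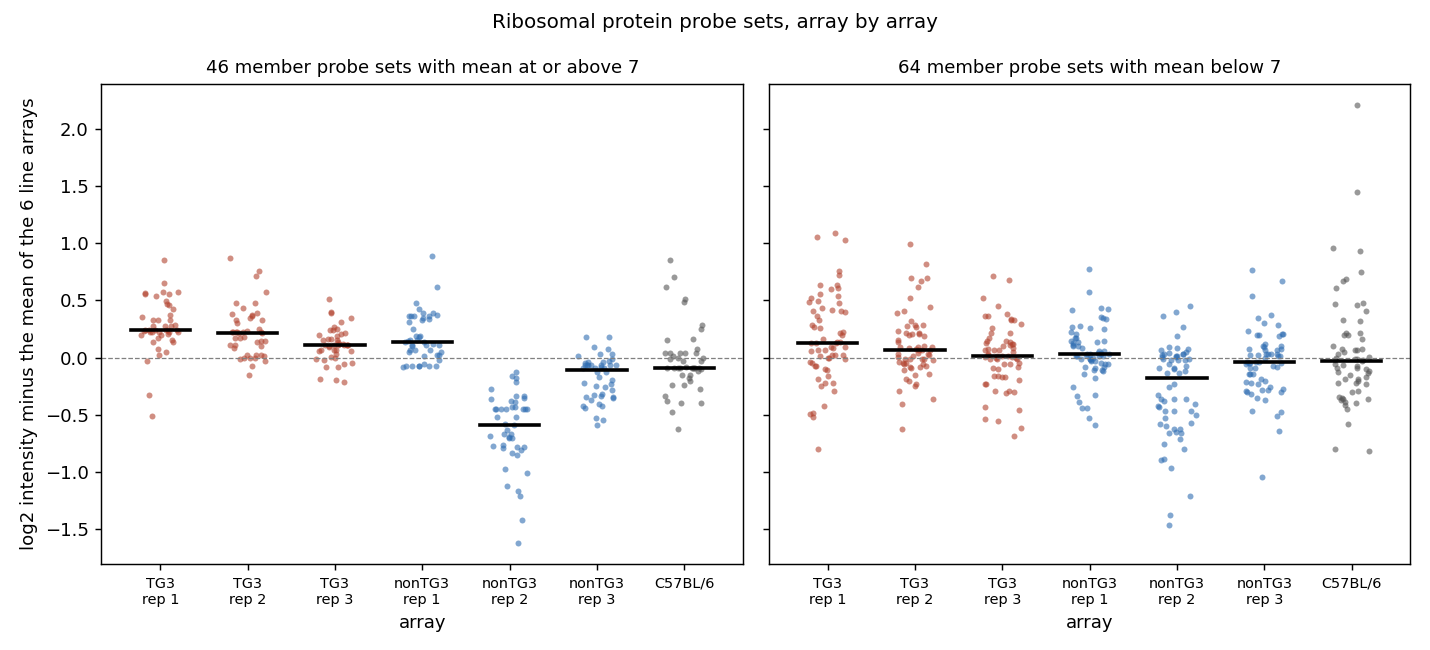
Each point is a ribosomal protein probe set on an array, drawn as its log2 intensity minus its mean over the 6 line arrays, in separate panels for probe sets with a mean over all arrays of at least 7 and for dimmer ones, and the bar is the median. In the bright panel all 46 points of nonTG3 replicate 2 lie below zero, and the points of nonTG3 replicates 1 and 3 overlap those of TG3.

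Markers of other cell types also differed between arrays. The mean of 13 measured leukocyte markers of 14 listed was 4.39, 4.22 and 4.25 on TG3 replicates 1, 2 and 3, 4.21, 3.75 and 4.05 on nonTG3 replicates 1, 2 and 3, and 4.07 on C57BL/6. nonTG3 replicate 2, lowest in ribosomal proteins, was lowest at 7 of these 13, or 53.8%, against 14.9% of all probe sets tested. It had 5 of them above the median of the 23493 tested probe sets on its array, which was 3.77. The other line arrays had 7 to 9 above theirs, and C57BL/6 had 6. On nonTG3 replicate 2, C1qa at 3.65 and Csf1r at 3.75 lay below that cutoff but above the medians of 3.52 to 3.61 over all probe sets. Markers of epididymal epithelium, 11 of 12 measured, averaged 4.89, 5.29 and 5.12 in TG3, 5.33, 4.86 and 4.48 in nonTG3 and 4.75 in C57BL/6. Markers of fibroblasts, muscle and vessels, 14 of 14 measured, averaged 5.64, 4.43 and 4.61 in TG3, 4.83, 4.82 and 5.37 in nonTG3 and 4.54 in C57BL/6. Their part in the ribosomal protein values was not tested. In pooled sperm, fewer cells of a type and less RNA per cell cannot be told apart.

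Between TG3 and nonTG3 no ribosomal protein probe set passed the test. The test was limma with 1 mean per group, adjusted by Benjamini and Hochberg over all 23493 probe sets and called at an adjusted p under 0.05. It called 0.00% of all probe sets in either direction, and the smallest adjusted p among members was 0.923. The differences leaned to higher readings in TG3: 90 of 110 were positive and 20 negative, with a median of 0.28, a range of -0.35 to 1.05 and a median over all tested probe sets of 0.0045. At an unadjusted p under 0.05, 12 members were higher and 0 lower in TG3, against 1.48% of all tested higher and 0.898% lower. Of those 12, 6 are Rps12 probe sets with identical values.

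Every TG3 array lay above every nonTG3 array at 17 of 110 members, or 15.5%, against 2.47% of all probe sets tested. Every TG3 array lay below at 0 members, against 1.65% of all tested. The 17 were 7 probe sets of Rps12, 3 probe sets of other small subunit or stalk genes (Rps10, Rps3a1 and Rplp1), and large subunit probe sets of Rpl10a, Rpl3, Rpl41 and Rpl7a. With identical probe sets counted once they were 12. With only the brightest probe set of each gene they were 7, or 10.1% of 69. After cyclic loess, another way of scaling the arrays, they were also 7 of the 110, and the share over all tested was not computed there. For a separate probe set, groups of 3 and 3 allow a two-sided exact permutation p of 0.1 at the least, which these 17 reached.

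The lean depended on which nonTG3 array was compared. The TG3 mean minus nonTG3 replicate 1 had a median of 0.043 over members, with 65 of 110 positive. The same difference had a median of 0.57 with 94 positive against nonTG3 replicate 2, and of 0.25 with 83 positive against nonTG3 replicate 3. Without nonTG3 replicate 2 the median was 0.13, with 81 positive. With 1 array fewer, groups separate more often over all probe sets too. Without nonTG3 replicate 2 every TG3 array was above every nonTG3 array at 19 members, or 17.3%, against 4.90% of all tested, and without nonTG3 replicate 1 at 47, or 42.7%, against 8.51%. Without TG3 replicate 2 the members numbered 26, or 23.6%, against 7.05% of all tested, and without TG3 replicate 3 also 26, against 5.53%.

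The lean was found among the brighter probe sets. Of the 46 with a mean of at least 7, 44 were positive, with a median of 0.38, and 13, or 28.3%, had no overlap. Over all 884 tested probe sets of that brightness the median was -0.13, 36.9% were positive, and every TG3 array was above every nonTG3 array at 2.49% and below at 0.905%. Of the 21 members with a mean of 5 to 7, 20 were positive, with a median of 0.35 and a median over all tested of -0.028. Of the 43 dimmer members, 26, or 60.5%, were positive, with a median of 0.095, against 53.3% and 0.012 over all tested probe sets as dim. Every TG3 array was above every nonTG3 array at 2.33% of these members, against 2.58% of all as dim. The spread also differed between groups: the median SD of the bright members was 0.15 in TG3 and 0.38 in nonTG3, and it was larger in nonTG3 at 40 of the 46. Over the 884 it was 0.42 in TG3 and 0.28 in nonTG3, and larger in nonTG3 at 25.1%.

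**Figure D2:**
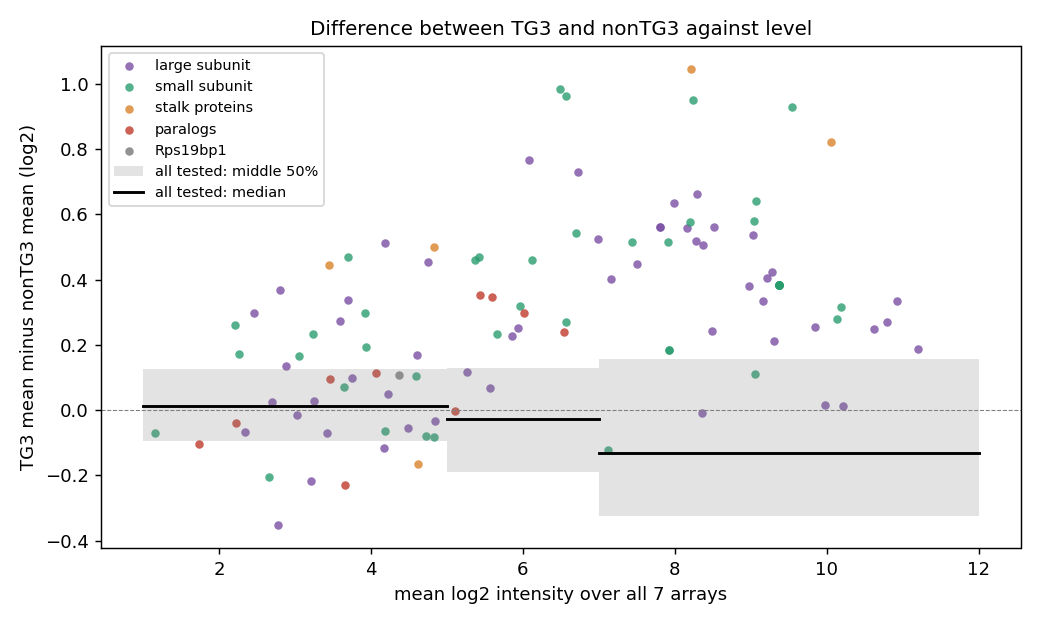
Each point is a ribosomal protein probe set, with its mean log2 intensity over all 7 arrays on the horizontal axis and the TG3 mean minus the nonTG3 mean on the vertical axis, coloured by role, and the grey bands and black lines give the middle range and median of all tested probe sets in 3 ranges of brightness. Above a level of 7 all 46 points lie above the black line, which is at -0.13, and 44 lie above zero. Below a level of 5 the points lie on both sides of zero.

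The stalk proteins Rplp0, Rplp1 and Rplp2 form the flexible arm of the large subunit that recruits elongation factors. The brighter Rplp0 probe set read 8.76, 8.68 and 8.46 in TG3, 8.50, 6.50 and 7.77 in nonTG3 and 8.82 in C57BL/6. nonTG3 replicate 2 was far below the others and nonTG3 replicate 1 was within the TG3 range, so the groups overlapped. Its difference of 1.05 ± 0.50 (SE) between TG3 and nonTG3 did not pass the limma test (adjusted p = 0.923). The dimmer Rplp0 probe set read 4.39, 4.61 and 4.61 in TG3, 4.84, 5.02 and 4.25 in nonTG3 and 4.61 in C57BL/6, with nonTG3 replicate 2 the highest.

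The brighter Rplp1 probe set read 10.31, 10.84 and 10.33 in TG3, 10.07, 9.31 and 9.64 in nonTG3 and 9.85 in C57BL/6. All TG3 arrays were above all nonTG3 arrays, and its unadjusted limma p of 0.0168 was the smallest among members that were higher in TG3 (difference 0.82 ± 0.24, adjusted p = 0.923). Rplp2 read 3.98, 3.44 and 3.56 in TG3, 3.00, 3.44 and 3.21 in nonTG3 and 3.44 in C57BL/6, near the array medians, and the groups met at 3.44.

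In the small subunit, 36 of 42 probe sets were positive between TG3 and nonTG3, with a median of 0.32. Rpsa, a small subunit protein also known as the laminin receptor precursor, read 6.70, 7.53 and 6.83 in TG3, 7.11, 5.16 and 5.90 in nonTG3 and 6.75 in C57BL/6. nonTG3 replicate 1 lay inside the TG3 range and the other nonTG3 arrays below it (difference 0.96 ± 0.53, limma adjusted p = 0.923). Rps6, the substrate of the S6 kinases, read 9.66, 10.39 and 9.91 in TG3, 9.84, 8.40 and 8.94 in nonTG3 and 9.69 in C57BL/6. It overlapped in the same way.

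Rps4x, an X-linked small subunit protein, read 8.79, 9.04 and 8.57 in TG3, 8.68, 6.91 and 7.98 in nonTG3 and 7.71 in C57BL/6. The C57BL/6 array was below 5 of the 6 line arrays, and nonTG3 replicate 2 was below it. The brighter Rps3a1 probe set, for a protein of the small subunit, read 7.10, 7.23 and 6.98 in TG3, 6.65, 5.15 and 6.55 in nonTG3 and 5.81 in C57BL/6. All TG3 arrays were above all others, and nonTG3 replicate 2 was the lowest. Its difference between TG3 and C57BL/6 of 1.29 had a limma adjusted p of 0.515, which was 0.0429 without nonTG3 replicate 2.

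Smaller differences with no overlap came from Rps10 and Rps12, both of the small subunit. Rps10 read 6.82, 6.93 and 7.15 in TG3, 6.75, 6.17 and 6.35 in nonTG3 and 6.68 in C57BL/6 (difference between TG3 and nonTG3 of 0.54 ± 0.18, limma adjusted p = 0.923). The 6 identical Rps12 probe sets read 9.63, 9.60 and 9.49 in TG3, 9.31, 8.94 and 9.32 in nonTG3 and 9.29 in C57BL/6. The group means differed by 0.38, and since the 6 probe sets agree on every array they count as 1 measurement. Rps25 went the other way from most bright members, at 6.79, 7.14 and 7.24 in TG3, 8.004, 6.94 and 6.59 in nonTG3 and 7.09 in C57BL/6, with nonTG3 replicate 1 the highest and the groups overlapping.

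In the large subunit, 43 of 52 probe sets were positive, with a median of 0.26. A bright Rpl7a probe set read 8.45, 8.54 and 8.38 in TG3, 8.29, 7.60 and 7.81 in nonTG3 and 8.09 in C57BL/6, without overlap between TG3 and nonTG3 (difference 0.56 ± 0.19, limma adjusted p = 0.923). Rpl8 read 7.21, 6.90 and 7.05 in TG3, 6.95, 5.80 and 6.21 in nonTG3 and 6.90 in C57BL/6, with nonTG3 replicate 1 inside the TG3 range. Rpl15 read 8.46, 8.13 and 8.05 in TG3, 8.38, 6.69 and 7.68 in nonTG3 and 8.52 in C57BL/6. Its C57BL/6 reading was above all line arrays.

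Not every bright large subunit probe set varied. The brightest of Rpl21 read 10.24, 10.21 and 10.21 in TG3, 10.33, 10.05 and 10.24 in nonTG3 and 10.21 in C57BL/6, and its arrays spanned less than 0.3. Rpl5, which binds the 5S ribosomal RNA with Rpl11, read 2.92, 2.53 and 2.69 in TG3, 3.01, 3.34 and 2.85 in nonTG3 and 2.08 in C57BL/6, below all array medians. It had the most negative difference between TG3 and nonTG3, at -0.35 ± 0.17 (limma adjusted p = 0.923), with overlapping groups.

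**Figure D3:**
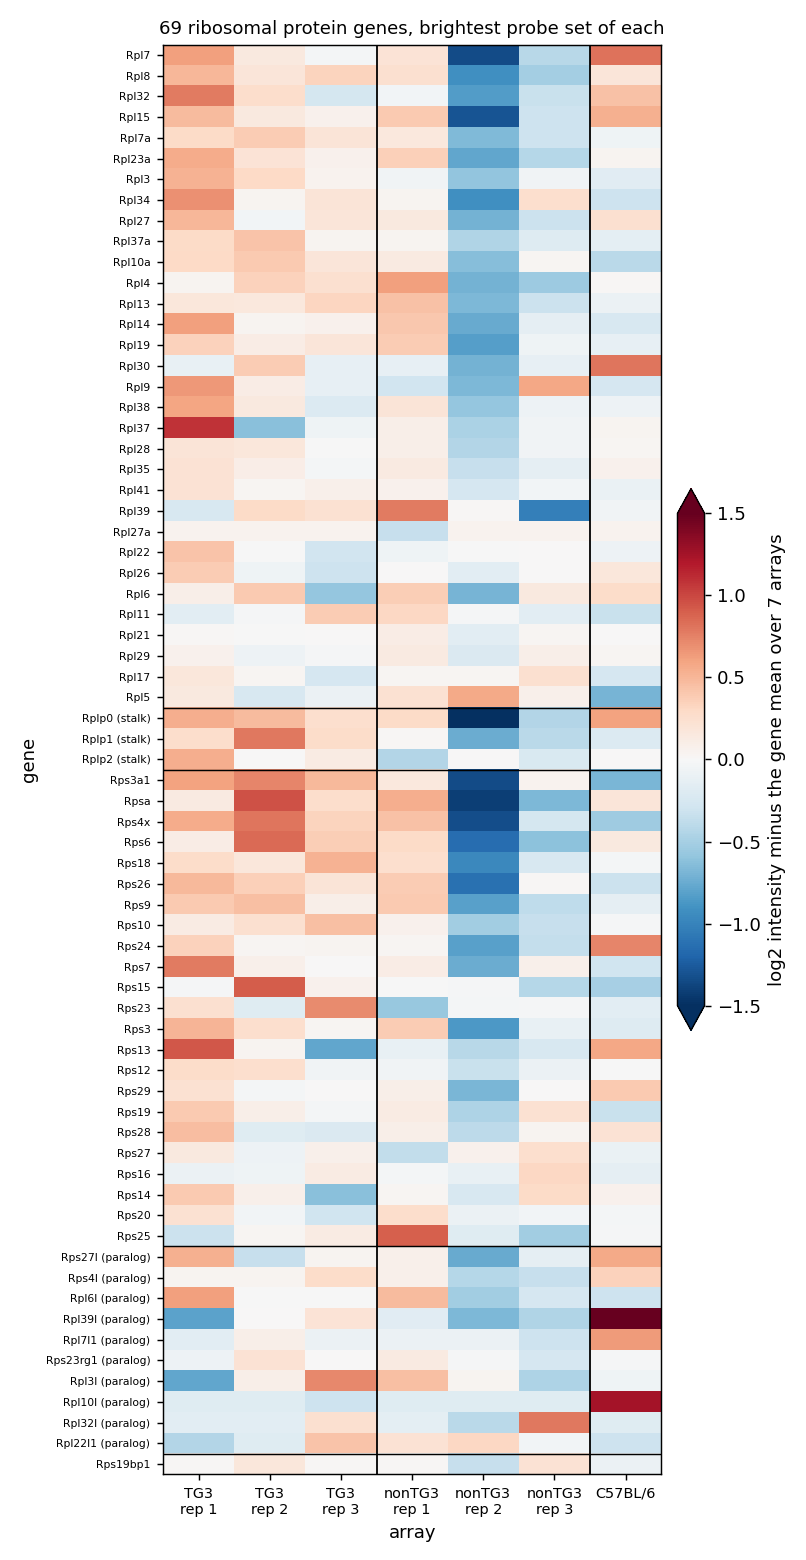
Rows are the 69 genes, each by its brightest probe set and ordered by role, columns are the 7 arrays, and the colour is the log2 intensity minus the gene's mean over the arrays, from blue for lower to red for higher. The column of nonTG3 replicate 2 is blue in most rows of the large and small subunits, and the C57BL/6 column is darkest red at Rpl39l and Rpl10l.

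Of the 25 genes read by several probe sets, 24 had probe sets with distinct values, and these did not always move together. The difference between TG3 and nonTG3 had 1 sign over all probe sets of a gene in 16 of 24 genes. In 17 of the 24 the brightest probe set had the larger TG3 minus nonTG3 difference than the dimmest. In 15 the brightest and dimmest were more than 3 apart in mean, as for Rplp0 and for Rps3a1, whose second probe set read 1.85 to 2.49 on the line arrays.

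Against C57BL/6, 1 ribosomal protein probe set differed, that of the testis form Rpl10l, which was lower in the line. The contrast was the mean of the TG3 and nonTG3 means minus the C57BL/6 array. It called 2.85% of all probe sets lower and 0.170% higher, and among members it called 1 of 110 lower and 0 higher. At an unadjusted p under 0.05, 5 members were lower and 2 higher, against 7.96% of all tested lower and 4.29% higher. The members were split between 66 positive and 44 negative differences, with a median of 0.058 beside 0.037 over all tested. This split turned with the scaling: after cyclic loess 38 were positive and 72 negative. Every line array lay below the C57BL/6 array at 16 members, against 14.3% of all tested, and above it at 8, against 18.2%.

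Rpl10l is an autosomal, intronless copy of the X-linked Rpl10 that replaces it in male meiosis. It read 2.03, 2.03 and 1.91 in TG3, 2.03, 2.03 and 2.03 in nonTG3 and 3.46 in C57BL/6. Of the 6 line arrays 5 held the same value, and all 7 arrays were below their median, so the C57BL/6 reading was also low. The SD was 0.069 in TG3 and 0 in nonTG3, and the SE and p-values below rest on this spread after limma's moderation. The difference of -1.45 ± 0.10 between the line and C57BL/6 passed limma's test (adjusted p = 0.00341), as did those of TG3 (-1.47, adjusted p = 0.00482) and nonTG3 (-1.43, adjusted p = 0.00505), which share the C57BL/6 array. TG3 minus C57BL/6 called 2.41% of all probe sets lower and 0.119% higher, nonTG3 minus C57BL/6 called 2.43% lower and 0.0936% higher, and Rpl10l was the sole member among them. Over the alternatives tried the adjusted p for the line ran between 0.00216 and 0.0770, and the call was lost without TG3 replicate 1 and nonTG3 replicate 3 together. Rpl10 and the pair Rpl36a and Rpl36al have no probe set with 1 symbol and were not analysed here.

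Rpl39l, the testis form of Rpl39, which lines the exit tunnel of the large subunit, had the largest difference from C57BL/6 among members. It read 5.74, 6.55 and 6.75 in TG3, 6.37, 5.86 and 6.08 in nonTG3 and 8.43 in C57BL/6. All line arrays were more than 1.6 below the C57BL/6 array, while TG3 and nonTG3 overlapped. The line averaged 6.23 ± 0.40 (SD, n = 6), a difference of -2.20 ± 0.39 or 4.60-fold, and its limma adjusted p of 0.0516 just missed the threshold. Over the alternatives the adjusted p ran between 0.0268 and 0.144, and it was 0.0337 without TG3 replicate 1. Rpl39 itself, on the X chromosome, read 4.37, 4.89 and 4.82 in TG3, 5.39, 4.62 and 3.57 in nonTG3 and 4.55 in C57BL/6, so the C57BL/6 reading was within the line.

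Rpl7l1, a relative of Rpl7, read 3.92, 4.16 and 3.98 in TG3, 3.98, 3.98 and 3.76 in nonTG3 and 4.71 in C57BL/6. All line arrays were below C57BL/6 (difference -0.75 ± 0.15, limma adjusted p = 0.0686, or 0.0462 after cyclic loess). The brighter Rpl7 probe set read 6.70, 6.23 and 6.05 in TG3, 6.29, 4.74 and 5.67 in nonTG3 and 6.90 in C57BL/6, with the C57BL/6 array highest and nonTG3 replicate 2 lowest. Rps4l read 5.64, 5.64 and 5.87 in TG3, 5.67, 5.18 and 5.26 in nonTG3 and 5.95 in C57BL/6, and Rps27l, a relative of Rps27, read 5.97, 5.09 and 5.48 in TG3, 5.50, 4.68 and 5.30 in nonTG3 and 6.00 in C57BL/6. Both were thus below C57BL/6 on every line array by margins that reached down to less than 0.1.

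Of 10 paralog probe sets, 5 had every line array below C57BL/6, against 14.3% of all tested, and these were Rpl10l, Rpl39l, Rpl7l1, Rps4l and Rps27l. The other paralogs had overlapping readings. Rpl3l, a form of Rpl3 known from striated muscle, read 4.31, 5.19 and 5.82 in TG3, 5.55, 5.14 and 4.64 in nonTG3 and 5.03 in C57BL/6. Rpl22l1, a relative of Rpl22, read 3.22, 3.48 and 4.09 in TG3, 3.88, 3.97 and 3.62 in nonTG3 and 3.34 in C57BL/6. Rpl6l read 6.62, 6.00 and 6.00 in TG3, 6.48, 5.49 and 5.76 in nonTG3 and 5.70 in C57BL/6. The remaining paralogs were dim: Rpl32l read 1.33 to 2.52 on the line arrays and 1.54 on C57BL/6, and Rps23rg1 read 3.21 to 3.68 on the line arrays and 3.44 on C57BL/6.

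Among the genes that these paralogs resemble, the C57BL/6 reading lay within the line's range at Rpl22, Rps27, Rps4x and the brightest Rpl3 probe set. At the brighter Rpl7 probe set it lay above that range. Rpl22 read 6.00, 5.57 and 5.29 in TG3, 5.50, 5.57 and 5.58 in nonTG3 and 5.49 in C57BL/6, and Rps27 read 3.79, 3.57 and 3.73 in TG3, 3.28, 3.71 and 3.90 in nonTG3 and 3.55 in C57BL/6. The brightest Rpl3 probe set, of the large subunit's catalytic core, read 7.50, 7.28 and 7.03 in TG3, 6.93, 6.39 and 6.93 in nonTG3 and 6.81 in C57BL/6, with all TG3 arrays above all others. Rps19bp1, the partner of Rps19, read 4.38, 4.54 and 4.39 in TG3, 4.38, 4.02 and 4.58 in nonTG3 and 4.29 in C57BL/6, and the groups overlapped.

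**Figure D4:**
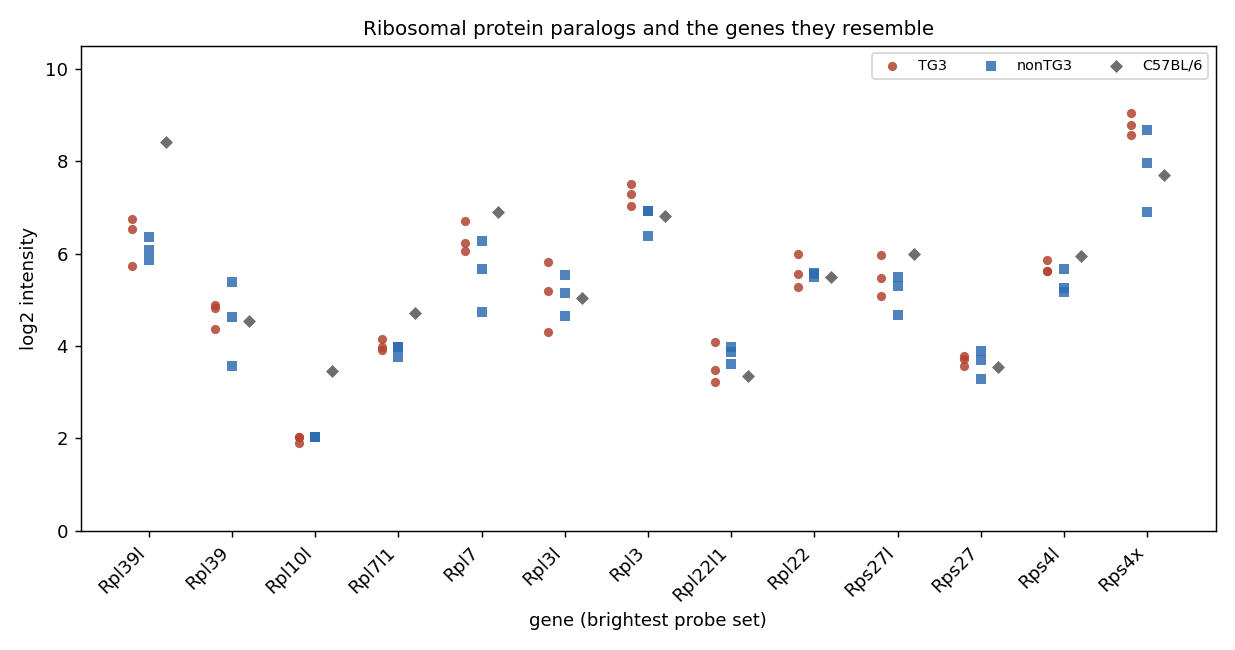
Log2 intensity on each array for 7 paralogs and the genes they resemble, each by its brightest probe set, with circles for TG3, squares for nonTG3 and a diamond for the C57BL/6 array. Rpl39l and Rpl10l show the widest gap between the diamond and the line, and Rpl39 shows none.

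Other members with small unadjusted p against C57BL/6 did not pass. Rpl30, a large subunit protein, read 2.69, 3.19 and 2.68 in TG3, 2.68, 2.09 and 2.68 in nonTG3 and 3.60 in C57BL/6 (difference between the line and C57BL/6 of -0.93, limma adjusted p = 0.265). The brightest Rps24 probe set read 8.25, 7.93 and 7.94 in TG3, 7.94, 7.09 and 7.55 in nonTG3 and 8.64 in C57BL/6 (-0.86, limma adjusted p = 0.333). Rpl5 and a dim Rpl7a probe set were higher on every line array, by 0.81 and 0.41 (limma adjusted p = 0.180 and 0.116). Their readings were near or below the array medians. Rpl10a, of the large subunit, read 7.80, 7.90 and 7.68 in TG3, 7.64, 6.86 and 7.53 in nonTG3 and 7.10 in C57BL/6, with all TG3 arrays above all others (TG3 minus C57BL/6 of 0.69, limma adjusted p = 0.504). Rps15, of the small subunit, read 3.68, 4.60 and 3.76 in TG3, 3.69, 3.68 and 3.27 in nonTG3 and 3.20 in C57BL/6, with the C57BL/6 array lowest (TG3 minus C57BL/6 of 0.82, limma adjusted p = 0.560).

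The last members with values by the rule on p had small differences at low readings. A dim Rps19 probe set read 4.39 to 4.98 on the line arrays and 4.26 on C57BL/6, and Rpl17 read 3.91 to 4.40 and 3.91. The dimmest Rpl35 probe set read 2.22 to 2.43 on the line arrays and 2.15 on C57BL/6. C57BL/6 was at the low end for these, and at the high end for the dimmest Rpl3 probe set, with 2.87 to 3.43 on the line arrays and 3.49 on C57BL/6, and for the dimmer Rps20 probe set, with 0.99 to 1.17 and 1.33. The smallest limma adjusted p of these 5 over the 4 contrasts was 0.470.

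Some markers of testis cells also differed between the line and C57BL/6. Round spermatid and meiotic markers, 9 of 10 measured, averaged 5.40, 5.40 and 5.24 in TG3, 5.27, 5.34 and 5.50 in nonTG3 and 6.83 in C57BL/6. Of these, 5 were called lower in the line and 0 higher, and over all probe sets tested 2.85% were called lower and 0.170% higher. Their median difference was -1.89, with 7 negative and 2 positive, Acr and Tssk6. Leydig markers, 5 of 7 measured, averaged 2.37 to 2.68 on the line arrays, where 0 of 5 exceeded the array median, and 4.07 on C57BL/6, where 3 did, and 3 were called lower. Sertoli markers were divided: the median difference over 8 was -0.0037, with 4 positive and 4 negative, and the 2 called lower were Cst9 and Defb36. Their list mean was 3.53 to 3.76 on the line arrays and 4.49 on C57BL/6. Late sperm markers averaged 9.75 to 9.98 on the line arrays and 10.93 on C57BL/6, and 3 of 7 were called lower. The part of these cells in the readings of Rpl10l and Rpl39l was not tested.

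Promoters are shown for the testis forms and Rpl39, and for some of the members that read furthest below the other line arrays on nonTG3 replicate 2, because these genes gave the differences described above. RefSeq's table for GRCm38.p6 held a promoter for 54 of the 69 genes, and the search covered 250 bases before to 50 bases after the start of each. The windows run 5′ to 3′ from 30 bases before the start, in lower case, with capitals for a run of 8 or more C or T near the start and for CGGAAG or its reverse complement, CTTCCG.
Rpl39l, chr16:10170198-10170257, plus strand: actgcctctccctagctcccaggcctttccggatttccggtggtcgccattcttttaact
Rpl10l, chr12:66284372-66284431, minus strand: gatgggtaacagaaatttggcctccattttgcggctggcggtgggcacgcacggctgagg
Rpl39, chrX:37085193-37085252, minus strand: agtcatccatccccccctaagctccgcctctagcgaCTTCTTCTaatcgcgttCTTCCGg
Rps4x, chrX:102189362-102189421, minus strand: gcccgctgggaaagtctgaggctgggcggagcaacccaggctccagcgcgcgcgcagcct
Rps3a1, chr3:86142639-86142698, minus strand: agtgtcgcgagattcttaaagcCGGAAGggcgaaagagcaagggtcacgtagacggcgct
Rpsa, chr9:120127736-120127795, plus strand: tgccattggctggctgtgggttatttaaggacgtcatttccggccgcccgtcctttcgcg
Rps6, chr4:86857338-86857397, minus strand: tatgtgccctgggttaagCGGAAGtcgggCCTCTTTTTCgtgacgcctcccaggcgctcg
Rplp0, chr5:115559437-115559496, plus strand: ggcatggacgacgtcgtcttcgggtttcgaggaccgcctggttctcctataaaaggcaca

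A run of 8 or more C or T that lay within 10 bases of the annotated start was found in 25 of the 54 promoters, or 46.3%, against 13.5% of 27025 promoters in the table. CGGAAG, the core letters of sites for ETS factors, stood on either strand in 34, or 63.0%, against 17.2% of all. TATAAA stood on either strand in 5, or 9.26%, against 14.2% of all. These are counts of letters in annotated windows and describe no binding.

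Genes that work beside the ribosome showed similar array patterns in part. Of 22 listed translation factors and other genes known for pyrimidine-tract mRNAs, 17 were measured, each by its brightest probe set. Their TG3 minus nonTG3 median was 0.46, with 15 of 17 positive and 0 called. At 13 of the 17, or 76.5%, nonTG3 replicate 2 was lowest, against 14.9% of all probe sets tested and 20.4% of those with a mean of at least 7. Every TG3 array lay above every nonTG3 array at 0 of the 17, against 2.47% of all tested. Between the line and C57BL/6, 3 of the 17 differences were positive and 14 negative, while 61.0% of all tested were positive. Tpt1, the translationally controlled tumour protein, read 10.73, 11.21 and 11.28 in TG3, 11.13, 9.24 and 9.80 in nonTG3 and 10.90 in C57BL/6. Eef1a1, which delivers aminoacyl-tRNA to the ribosome, read 9.66, 10.30 and 10.05 in TG3, 9.99, 8.54 and 9.03 in nonTG3 and 9.78 in C57BL/6. For both genes nonTG3 replicate 1 lay within the TG3 range and nonTG3 replicates 2 and 3 lay below it.

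The mitochondrial ribosomal proteins, which make up the separate ribosome of mitochondria, were compared as the nearest gene family. Over 71 genes their TG3 minus nonTG3 median was 0.12, with 52 positive and 0 called. At 26 of the 71, or 36.6%, nonTG3 replicate 2 was lowest, against 14.9% of all probe sets tested. These genes averaged 4.49, 4.43 and 4.43 in TG3, 4.43, 4.20 and 4.35 in nonTG3 and 4.57 in C57BL/6. The step on nonTG3 replicate 2 was smaller there than over all 110 cytosolic probe sets, of which 46 had a mean of at least 7. Among the 43 cytosolic probe sets with a mean below 5, nonTG3 replicate 2 was lowest at 13, or 30.2%. Its median deviation from the line mean was -0.023 at those 43 and -0.12 for the mitochondrial genes. A difference between the families was not tested. Ribosome assembly factors, 25 of 28 measured, had a TG3 minus nonTG3 median of 0.042. Mitochondrially encoded mRNAs followed another order, at 8.81, 11.42 and 11.47 in TG3, 11.50, 9.98 and 8.94 in nonTG3 and 11.21 in C57BL/6, with TG3 replicate 1 and nonTG3 replicate 3 lowest. TG3 replicate 1 was also the line array that held the highest value at the largest number of ribosomal protein probe sets, 47 of 110.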

How the data were processed

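Sperm RNA from 7 pools was labelled with the SensationPlus WT kit, per the labels' protocols. The deposited values are log2 intensities that the authors made with R 3.1.0, oligo, RMA and limma, per the submitters' processing notes. Of 33604 probe sets, 23493 with exactly 1 gene symbol in the platform annotation entered the fits, 1801 had several symbols and 8310 none. A ribosomal protein symbol stood on 57 probe sets with several symbols, which were left out, and 14 symbols occurred only there. Differences were computed with limma 3.58.1 in R 4.3.3, with 1 mean per group over all 7 arrays and empirical Bayes moderation (4 residual and 1.65 prior degrees of freedom), adjusted by Benjamini and Hochberg. The procedure was tested on simulated data. Their noise was independent and normal, so that test does not cover tied values or a shift shared by a whole array. Exact permutation tests used scipy 1.17.1. The number of arrays limits the precision, since depth has no meaning here.

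The members and lists were chosen with earlier results of these data known. Named with values were members called in any contrast, the 5 with the smallest p in each direction per contrast, stalk proteins and Rpsa, paralog pairs, X-linked members, and Rps19bp1, while genes with several probe sets are given mostly by counts. Rps6, Rps25, Rpl8, Rpl15, Rpl21, Tpt1 and Eef1a1 were named after their values were seen. All 69 symbols matched RefSeq. Same-numbered TG3 and nonTG3 arrays did not pair, as their deviations from group means correlated at -0.449, 0.0159 and -0.403. RMA gave equal values on several arrays for some probe sets: 7 members, or 6.36%, had at most 4 distinct values over the 6 line arrays, against 30.9% of all tested. Alternatives covered normalization, the variance model, the filter on dim probe sets, thresholds, the members, the arrays in the fit and the pairing.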

Additional observations from a re-analysis of the deposited data

How the results depend on the processing

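Across up to 22 alternatives per result, 0 members were called between TG3 and nonTG3. The median for TG3 minus nonTG3 was 0.28 and ran between 0.13, without nonTG3 replicate 2, and 0.37, for the line minus C57BL/6 between -0.14 and 0.083, for TG3 minus C57BL/6 between 0.094 and 0.24, and for nonTG3 minus C57BL/6 between -0.30 and 0.024. Members called lower in the line than in C57BL/6 numbered 2 in place of 1 with median centring, cyclic loess, a robust prior or array weights, 3 at an adjusted p under 0.1, and 0 without paralogs or without TG3 replicate 1 and nonTG3 replicate 3 together. Without each replicate in turn they numbered between 1 and 2, with 2 without TG3 replicate 1. For TG3 minus C57BL/6 the count lower was 0 with only probe sets at or above the median, with only the groups of the contrast, without paralogs and without those 2 arrays, 2 at an adjusted p under 0.1, and 1 without each replicate in turn. The count higher ran between 0 and 1 without each replicate, with 1, Rps3a1, without nonTG3 replicate 2. For nonTG3 minus C57BL/6 the count lower was 2 with median centring or array weights, 3 at an adjusted p under 0.1, 0 without paralogs and without the same 2 arrays, and between 1 and 2 without each replicate. The setting without paralogs kept Rpl32l, Rpl6l and Rps23rg1 and left out Rps19bp1 as well. It takes out Rpl10l by construction, and so does the filter for probe sets at or above the median. Where a count stayed at 1 under that filter, the member called was not Rpl10l. The cause of the other changes was not tested. The 17 members with every TG3 array above every nonTG3 array were 7 after cyclic loess, where the share over all tested was not computed. With 1 probe set per symbol they were 7, or 10.1%, against 2.47% of all tested. Without the same 2 arrays they were 28, or 25.5%, against 12.5% of all tested, and 5 members lay below, against 13.3%. Without each replicate in turn they numbered between 19 and 47, or 17.3% to 42.7%, against 4.90% to 8.64% of all tested. Rpl17 between TG3 and nonTG3 was -0.11, and ran between -0.21 without TG3 replicate 1 and 0.0035 without TG3 replicate 3. With the replicate number as a block, 0 members were called lower and 0 higher between TG3 and nonTG3, and no TG3 array correlated best with the nonTG3 array of its own number. Counting identical probe sets once was chosen after seeing the data. Of 40 comparisons of named members, 30 kept direction and side of the threshold throughout. Signals near the array median limit what the dim members can show.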
